A study of Caenorhabditis elegans with 30 samples.

Results

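Sperm genes were followed in third-stage (L3) larvae of Caenorhabditis elegans. They were taken as the genes whose public name begins with msp- (major sperm protein), ssp- or ssq- (sperm-specific families P and Q) or spe- (defective in spermatogenesis). This rule found 72 of the 46170 genes in the table of RNA levels: 35 msp-, 12 ssp-, 4 ssq- and 21 spe- genes. Of these, 68 are annotated as protein-coding and 4, all msp-, as pseudogenes. The rule uses gene names alone and no measured value. It also takes in a few genes that were named for a sperm defect but act in other tissues.

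The study asked how acetylation of histone H4 at lysine 16 (H4K16ac) relates to X chromosome compaction and gene expression. RNA was sequenced from whole larvae in 4 groups. The dpy-21(e428) XX hermaphrodites lack a factor of X chromosome dosage compensation and gave 4 libraries. The XO groups carried sdc-2(y74) on the X chromosome and her-1(e1520) on chromosome V, develop as hermaphrodites with a single X chromosome, and were fed bacteria for mys-1(RNAi) or the empty vector, with 5 libraries each. Wild-type XX hermaphrodites of the N2 Bristol strain gave 4 libraries. All larvae were collected as L3 after 24 h on plates. H4K16ac was mapped in the XO and wild-type XX backgrounds, with 3 ChIP and 3 input libraries each, and the peaks were called on the pooled replicates. The labels give 1 strain for all XO ChIP libraries, whereas the study's supplement names others for some of the replicates, and the labels were followed.

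RNA levels are the authors' mean RPKM of a group, that is, reads scaled to transcript length and to the mapped reads of a library. No library has a value of its own in the table, so no spread between libraries can be given. Whether any difference below is larger than that spread was therefore not tested here. Sequencing depth cannot be read from these means either, so a level of 0 says that a gene was not detected and not that it was silent. XO and wild-type XX larvae differ in karyotype, in 2 mutations and in food, and these cannot be told apart. The labels were checked on the mutated and targeted genes. RNA of mys-1 stood at 51.7 RPKM in the XO libraries labelled mys-1(RNAi) against 15.7 RPKM in XO vector RNAi, so a knockdown is not seen in the RNA and the group is called by its label throughout. This RNA level does not measure the MYS-1 protein. The study reported that in L3 larvae grown on the RNAi food for RNA-seq, MYS-1 protein was no longer detectable by western blot. Whether RNA of the RNAi food or exchanged labels enter the RNA level was not tested. The neighbour npa-1, which overlaps mys-1, stood at 433.0 RPKM in the libraries labelled mys-1(RNAi), against 314.4 RPKM in XO vector RNAi, and the libraries were not stranded. sdc-2 RNA was 0.0509 RPKM in XO vector RNAi and 4.03 RPKM in wild-type XX. her-1 RNA was 433.6 RPKM in XO vector RNAi and 1.70 RPKM in wild-type XX. dpy-21 RNA, with 30.1 RPKM in dpy-21(e428) XX and 29.6 RPKM in wild-type XX, does not tell these groups apart.

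Sperm of C. elegans crawl on a cytoskeleton of major sperm protein, which takes the place of actin and is also released as the signal that makes oocytes mature and ovulate. The protein is made by a large family of near-identical intronless genes, transcribed in germ cells that have entered the sperm programme. Hermaphrodites make a limited number of sperm first, late in larval life, and then switch to oocytes. The spe- genes were found through sterile mutants, and their products build the spermatid and its membranous organelles, turn it into a crawling cell, or act at the surface where sperm meets egg.

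The 35 msp- genes stood in 3 clusters. The first held 15 genes between 4785898 and 5810330 on chromosome II. The second held 10 genes between 5055631 and 5316906 on chromosome IV, and the third 10 genes between 9689015 and 10144175 on the same chromosome. Positions are on WBcel235, the assembly of the WS235 release that the authors used. Over all 4 families, chromosome IV held 35 genes and chromosome II held 15. None lay on the X chromosome, which holds 13.6% of all protein-coding genes. The third msp- cluster also encloses 5 sperm genes of the other families.

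How alike the msp- genes are decides how well their reads can be assigned, so a stretch of 6 of them is shown. Of the 31 protein-coding msp- genes, 28 have a coding sequence of 381 bases without the stop codon. Their 378 pairs were between 86.1% and 99.5% identical, with a median of 92.5%. Bases 61 to 120 from the start codon are given for msp-113 (chrIV:5298022-5298081, plus strand), msp-51 (chrIV:5295221-5295280, minus strand), msp-19 (chrIV:5260649-5260708, plus strand), msp-78 (chrIV:9770106-9770165, plus strand), msp-49 (chrII:5194426-5194485, plus strand) and msp-142 (chrII:5797987-5798046, plus strand). Capitals mark the bases that differ from msp-113.
msp-113: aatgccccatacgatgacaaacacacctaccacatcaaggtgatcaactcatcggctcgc
msp-51: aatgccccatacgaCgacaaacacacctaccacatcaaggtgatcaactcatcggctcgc
msp-19: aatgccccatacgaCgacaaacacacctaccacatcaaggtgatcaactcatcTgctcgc
msp-78: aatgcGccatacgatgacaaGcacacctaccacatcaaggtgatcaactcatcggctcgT
msp-49: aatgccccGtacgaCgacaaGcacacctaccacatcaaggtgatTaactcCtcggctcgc
msp-142: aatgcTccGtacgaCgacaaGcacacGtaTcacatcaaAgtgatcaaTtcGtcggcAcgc
In this stretch msp-51 differs from msp-113 at 1 base and msp-142 at 10 bases. Reads were 50 bases long. Of the 50-base words of an msp- gene's exons, a median of 31.9% occurred at a single place in the genome, against 95.3% for ssp-, 82.5% for ssq- and 100% for spe- genes. In 23 of the 35 msp- genes fewer than 50% of the words were unique, and msp-113 and msp-79 had no unique word. At most 5.34% of a gene's words had more than 20 places, the limit of the authors' alignment, and reads with several places were divided among them. The level of a single msp- gene is therefore uncertain, while the sum over the family depends less on that division.

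The msp- genes also share a word upstream. Transcription factors of the GATA type bind words such as AGATAA and TGATAA, and ELT-1, a member of that class, is known to act on msp- genes. Bases -110 to -61 from the start codon are printed for 7 msp- genes from the 3 clusters, with the word in capitals. They are msp-3 (chrII:4786342-4786391, minus strand), msp-49 (chrII:5194256-5194305, plus strand), msp-152 (chrII:4932917-4932966, plus strand), msp-113 (chrIV:5297852-5297901, plus strand), msp-19 (chrIV:5260479-5260528, plus strand), msp-77 (chrIV:9894521-9894570, plus strand) and msp-78 (chrIV:9769936-9769985, plus strand).
msp-3: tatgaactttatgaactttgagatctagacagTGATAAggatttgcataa
msp-49: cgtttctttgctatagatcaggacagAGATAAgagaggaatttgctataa
msp-152: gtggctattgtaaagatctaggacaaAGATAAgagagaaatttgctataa
msp-113: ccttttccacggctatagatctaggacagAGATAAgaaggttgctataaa
msp-19: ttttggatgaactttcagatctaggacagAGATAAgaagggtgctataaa
msp-77: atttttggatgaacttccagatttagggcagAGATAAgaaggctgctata
msp-78: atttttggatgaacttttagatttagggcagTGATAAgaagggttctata
Either word, read on the coding strand and lying wholly between -90 and -70 from the start codon, was present in 26 of 35 msp- genes (74.3%, 95% Wilson interval 57.9 to 85.8%). All 26 words started between -84 and -78, with AGATAA in 19 genes and TGATAA in 7. Among the other families it was present in 3 of 12 ssp- genes, 2 of 4 ssq- genes and 0 of 21 spe- genes. Of all protein-coding genes, 355 of 19605 (1.81%) had a word in this window. In the whole 250 bases upstream and on either strand, a word was present in 80.0% of msp- genes and 40.2% of all protein-coding genes. The words and the window were chosen after the upstream sequences had been seen, neighbouring msp- genes share much of this sequence, and a match is a description of letters, not of binding.

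**Figure D1:**
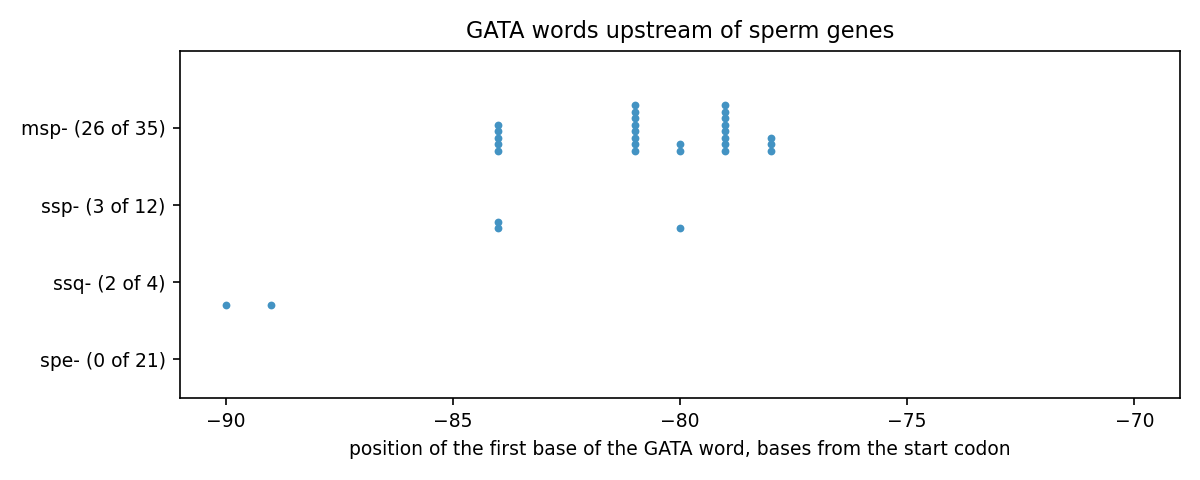
Position of the first base of an AGATAA or TGATAA word on the coding strand, in bases from the start codon (x axis), for each family (y axis, with the number of genes that have a word and the number of genes). Each point is 1 gene, stacked where positions coincide: the 26 msp- words start between -84 and -78.

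At L3, most sperm genes were at or near 0 in all 4 groups, and the few with clear levels were spe- genes and ssp-35. The study counts a gene as expressed above 1 RPKM. By that level 6 of 72 sperm genes were expressed in dpy-21(e428) XX, 8 in the XO libraries labelled mys-1(RNAi), 6 in XO vector RNAi and 5 in wild-type XX. Of all 19617 protein-coding genes, 64.9% were above 1 RPKM in dpy-21(e428) XX, 68.2% in the libraries labelled mys-1(RNAi), 67.3% in XO vector RNAi and 63.3% in wild-type XX. A mean of exactly 0 was listed for 40 sperm genes in dpy-21(e428) XX, 30 in the libraries labelled mys-1(RNAi), 28 in XO vector RNAi and 40 in wild-type XX. In every group 21 genes stood at 0, 16 of them msp-, and 60 genes were below 0.5 RPKM in every group. Larvae were sequenced whole, and fewer cells of a type and less RNA per cell cannot be told apart.

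**Figure D2:**
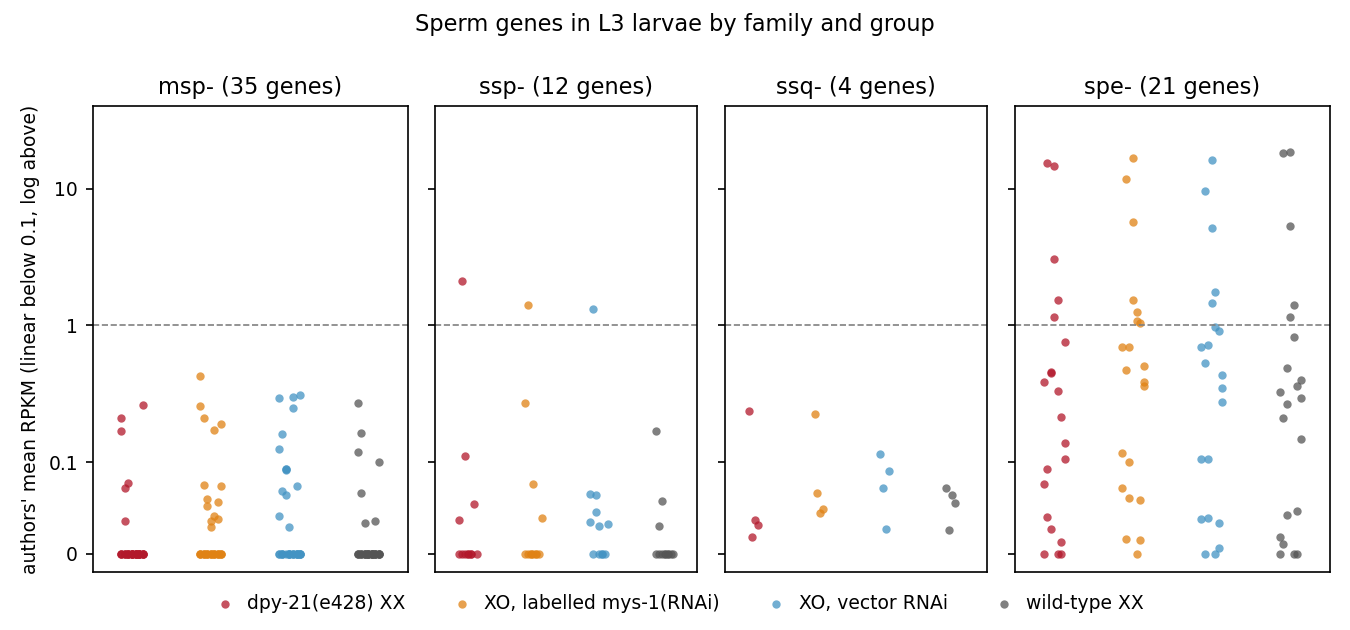
Authors' mean RPKM (y axis, linear below 0.1 and logarithmic above) of the 72 sperm genes in 4 panels by family, with 1 point for each gene and group and a dashed line at 1 RPKM. Every msp- and ssq- point lies below the line, the ssp- point above it is ssp-35, and the points near and above 10 RPKM are spe-39 and spe-29.

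No msp- gene reached 1 RPKM. The summed level of the 35 msp- genes was 0.832 RPKM in dpy-21(e428) XX, 1.72 RPKM in the libraries labelled mys-1(RNAi), 1.99 RPKM in XO vector RNAi and 0.795 RPKM in wild-type XX. Of these genes 6 were above 0 in dpy-21(e428) XX, 14 in the libraries labelled mys-1(RNAi), 14 in XO vector RNAi and 7 in wild-type XX. Both XO groups thus stood above both XX groups in the sum and in the number of msp- genes detected. At these levels the whole family adds up to about as much RNA per kilobase as a single weakly expressed gene. Genes at 0 share the same percentile among protein-coding genes, which is lower where fewer genes are at 0. This percentile was 5.92 for dpy-21(e428) XX and 6.10 for wild-type XX. It was 3.27 for XO vector RNAi and 2.74 for the XO group labelled mys-1(RNAi). More protein-coding genes in general were thus detected in the XO groups, so a higher number detected was not limited to msp- genes. Whether the rise was larger for msp- genes was not tested. The XO means rest on 5 libraries and the XX means on 4, and the part of that number in how many genes were detected was not tested.

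The msp- gene with the highest mean over the groups was msp-32, a gene of the chromosome II cluster. Its level was 0.211 RPKM in dpy-21(e428) XX, 0.429 RPKM in the libraries labelled mys-1(RNAi), 0.293 RPKM in XO vector RNAi and 0.119 RPKM in wild-type XX. Next came msp-31, with 0.265 RPKM in dpy-21(e428) XX, 0.190 in the libraries labelled mys-1(RNAi), 0.308 in XO vector RNAi and 0.101 in wild-type XX. The pseudogene msp-71 followed, with 0.171 RPKM in dpy-21(e428) XX, 0.257 in the libraries labelled mys-1(RNAi), 0.125 in XO vector RNAi and 0.273 in wild-type XX. Among the genes whose upstream sequence is printed, msp-49 was found in all 4 groups, at 0.0719 RPKM in dpy-21(e428) XX, 0.210 in the libraries labelled mys-1(RNAi), 0.0688 in XO vector RNAi and 0.0668 in wild-type XX. Of the others, msp-152 had 0.0298 RPKM in the libraries labelled mys-1(RNAi), 0.0292 in XO vector RNAi and 0 in both XX groups. msp-78 had 0.0408 RPKM in the libraries labelled mys-1(RNAi), against 0 in the other groups, while msp-3, msp-113, msp-19 and msp-77 were at 0 in every group. Of the 19 msp- genes detected anywhere, 8 were highest in the libraries labelled mys-1(RNAi), 9 in XO vector RNAi and 2 in wild-type XX. The same count was not made over all protein-coding genes, so nothing particular to msp- genes is read from it. Of 19617 protein-coding genes, 12486 were higher in XO vector RNAi than in wild-type XX.

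The ssp- genes encode short proteins with the fold of major sperm protein, and 11 of the 12 stayed below 0.5 RPKM in every group. ssp-10 had 0 RPKM in dpy-21(e428) XX, 0.271 in the libraries labelled mys-1(RNAi), 0.0348 in XO vector RNAi and 0.171 in wild-type XX. ssp-36 had 0.112 RPKM in dpy-21(e428) XX, 0 in the libraries labelled mys-1(RNAi), 0.0452 in XO vector RNAi and 0.0576 in wild-type XX. The genes ssp-9, ssp-11, ssp-19 and ssp-31 were at 0 throughout, and ssp-9 and ssp-11 have no 50-base word of their own in their exons. The 4 ssq- genes were detected in every group but summed to 0.323 RPKM in dpy-21(e428) XX, 0.386 in the libraries labelled mys-1(RNAi), 0.305 in XO vector RNAi and 0.218 in wild-type XX. ssq-1 was the highest of them, with 0.236 RPKM in dpy-21(e428) XX, 0.226 in the libraries labelled mys-1(RNAi), 0.116 in XO vector RNAi and 0.0725 in wild-type XX. ssq-4 had 0.0318 RPKM in dpy-21(e428) XX, 0.0485 in the libraries labelled mys-1(RNAi), 0.0906 in XO vector RNAi and 0.0557 in wild-type XX and shares 651 of its 1194 exon bases with T28H11.7 on the other strand. ssq-2 had 0.0182 RPKM in dpy-21(e428) XX, 0.0665 in the libraries labelled mys-1(RNAi), 0.0715 in XO vector RNAi and 0.0258 in wild-type XX.

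ssp-35 was the exception among the sperm-specific families, and the sperm gene that differed most between groups. WBGene00010091, as the table identifies it, spans chrV:12263500-12263823 on the minus strand. Its level was 2.11 RPKM in dpy-21(e428) XX, 1.42 RPKM in the libraries labelled mys-1(RNAi), 1.31 RPKM in XO vector RNAi and 0.0303 RPKM in wild-type XX. It was the only sperm gene above 1 RPKM in 3 groups and near 0 in wild-type XX. The first 60 coding bases of ssp-35 (chrV:12263764-12263823, minus strand) are set beside those of ssp-34 (chrIV:10738543-10738602, minus strand) and ssp-33 (chrV:14711377-14711436, plus strand) to show how far its reads can be told from those of its relatives. Capitals mark the bases that differ from ssp-35.
ssp-35: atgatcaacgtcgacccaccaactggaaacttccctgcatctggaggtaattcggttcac
ssp-34: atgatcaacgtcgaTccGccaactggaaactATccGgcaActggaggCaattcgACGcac
ssp-33: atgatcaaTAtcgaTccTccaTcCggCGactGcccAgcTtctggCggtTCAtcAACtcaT
ssp-34 differed at 10 and ssp-33 at 19 of these bases, and over the whole 321 coding bases ssp-34 was 80.4% and ssp-33 74.5% identical to ssp-35. All 50-base words in the exon of ssp-35 were unique in the genome. ssp-34 had 0.0372 RPKM in dpy-21(e428) XX, 0 in the libraries labelled mys-1(RNAi), 0.0652 in XO vector RNAi and 0 in wild-type XX. ssp-33 had 0 RPKM in dpy-21(e428) XX, 0.0396 in the libraries labelled mys-1(RNAi), 0.0327 in XO vector RNAi and 0 in wild-type XX, so both relatives were near 0 in the groups where ssp-35 was above 1 RPKM.

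Several genes next to ssp-35 were likewise lowest in wild-type XX. tbb-6, which encodes a beta-tubulin and ends 131 bp from ssp-35 on the other strand, had 10.7 RPKM in dpy-21(e428) XX, 11.1 RPKM in the libraries labelled mys-1(RNAi), 10.1 RPKM in XO vector RNAi and 1.56 RPKM in wild-type XX. On the other side, the pseudogene F55C5.2 lies 178 bp away and had 0.940 RPKM in dpy-21(e428) XX, 1.12 in the libraries labelled mys-1(RNAi), 1.14 in XO vector RNAi and 0.0432 in wild-type XX. ugt-55, of the glucuronosyltransferase family, lies 4695 bp away and had 5.70 RPKM in dpy-21(e428) XX, 4.47 in the libraries labelled mys-1(RNAi), 4.56 in XO vector RNAi and 2.101 in wild-type XX. twk-24, a potassium channel gene 1883 bp away, had 1.92 RPKM in dpy-21(e428) XX, 6.18 in the libraries labelled mys-1(RNAi), 5.06 in XO vector RNAi and 2.57 in wild-type XX and was lowest in dpy-21(e428) XX. These neighbours were looked up after the level of ssp-35 had been seen, and the part of reads from beyond the annotated end of a neighbour was not tested.

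Among the 21 spe- genes, 5 were above 1 RPKM in every group: spe-39, spe-29, spe-15, spe-4 and spe-5. Together the spe- genes summed to 38.9 RPKM in dpy-21(e428) XX, 42.8 RPKM in the libraries labelled mys-1(RNAi), 39.2 RPKM in XO vector RNAi and 47.9 RPKM in wild-type XX. They made up nearly all of the summed level of the 72 sperm genes, which was 42.3 RPKM in dpy-21(e428) XX, 46.7 in the libraries labelled mys-1(RNAi), 43.1 in XO vector RNAi and 49.1 in wild-type XX.

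**Figure D3:**
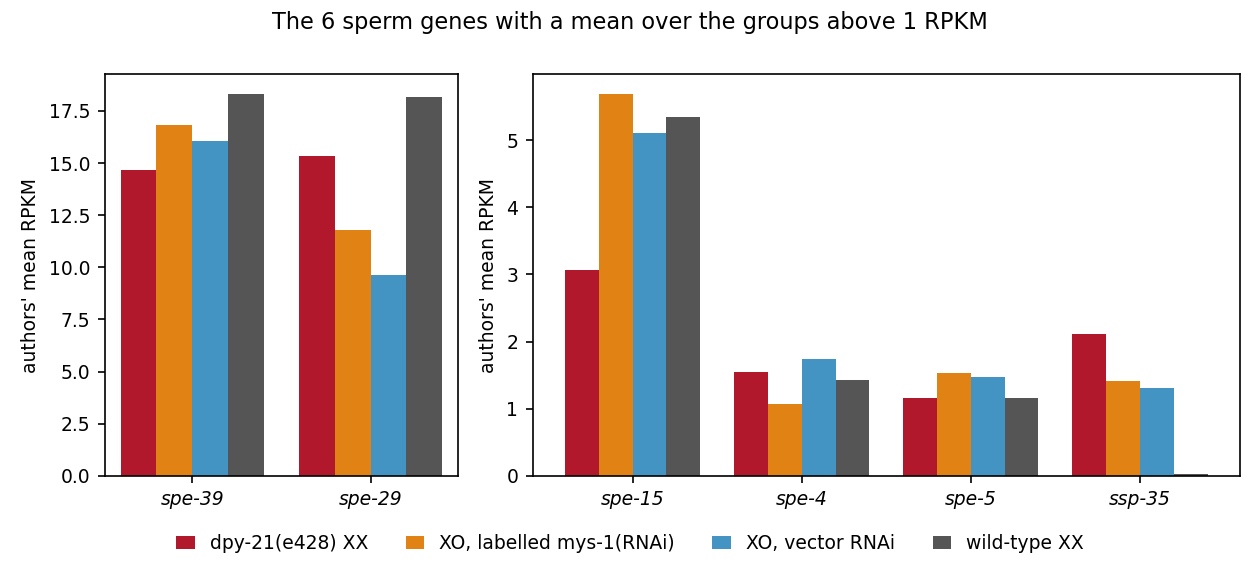
Authors' mean RPKM (y axis, from 0) of the 6 sperm genes with a mean over the groups above 1 RPKM, on 1 scale for spe-39 and spe-29 and another for spe-15, spe-4, spe-5 and ssp-35. Bars are group means without error bars: ssp-35 stands at 1.31 to 2.11 RPKM in 3 groups and at 0.0303 RPKM in wild-type XX.

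The genes of organelles and trafficking ranged widely, and spe-39 had the highest mean over the groups of all 72 sperm genes. spe-39 (WBGene00004975, chrV:6785451-6787864, plus strand) acts in vesicle transport to lysosomes in many tissues, and had 14.6 RPKM in dpy-21(e428) XX, 16.8 RPKM in the libraries labelled mys-1(RNAi), 16.1 RPKM in XO vector RNAi and 18.3 RPKM in wild-type XX. spe-15 (WBGene00004969), which encodes the motor myosin VI, had 3.07 RPKM in dpy-21(e428) XX, 5.70 in the libraries labelled mys-1(RNAi), 5.11 in XO vector RNAi and 5.35 in wild-type XX. spe-5 (WBGene00004959), a subunit of the proton pump that acidifies vesicles, had 1.16 RPKM in dpy-21(e428) XX, 1.53 in the libraries labelled mys-1(RNAi), 1.47 in XO vector RNAi and 1.15 in wild-type XX, and shares 68 of its 1669 exon bases with ift-20 on the other strand. spe-39 varied little between groups, and spe-15 was lowest in dpy-21(e428) XX. The remaining gene of this role, spe-26, encodes a kelch-repeat protein and had 0.106 RPKM in dpy-21(e428) XX, 0.389 in the libraries labelled mys-1(RNAi), 0.435 in XO vector RNAi and 0.297 in wild-type XX.

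Of the genes that form or activate the spermatid, spe-29 had the highest level and the other genes of its pathway were close to 0. spe-29 (WBGene00004974, chrIV:9933880-9934322, plus strand) encodes a small membrane protein of sperm activation in hermaphrodites, and had 15.3 RPKM in dpy-21(e428) XX, 11.8 RPKM in the libraries labelled mys-1(RNAi), 9.65 RPKM in XO vector RNAi and 18.2 RPKM in wild-type XX. Its partners in that pathway are the kinase spe-8 and the genes spe-12, spe-19 and spe-27. spe-12 was the highest of these, with 0.451 RPKM in dpy-21(e428) XX, 0.101 in the libraries labelled mys-1(RNAi), 0.106 in XO vector RNAi and 0.268 in wild-type XX. spe-8 had 0 RPKM in dpy-21(e428) XX, 0.0153 in the libraries labelled mys-1(RNAi), 0.00665 in XO vector RNAi and 0 in wild-type XX, and spe-27 had 0 RPKM in dpy-21(e428) XX, 0.0715 in the libraries labelled mys-1(RNAi), 0.0376 in XO vector RNAi and 0 in wild-type XX. spe-19 had 0.0123 RPKM in dpy-21(e428) XX, 0.0592 in the libraries labelled mys-1(RNAi), 0.0340 in XO vector RNAi and 0.0464 in wild-type XX. Each partner thus stayed far under the level listed for spe-29 in every group.

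The annotated spe-29 begins at the base after the end of F25H8.2 on the same strand, and 117 of its 343 exon bases are shared with gon-1 on the other strand. F25H8.2 had 18.0 RPKM in dpy-21(e428) XX, 15.5 RPKM in the libraries labelled mys-1(RNAi), 14.5 RPKM in XO vector RNAi and 15.8 RPKM in wild-type XX, and gon-1 had 23.9 RPKM in dpy-21(e428) XX, 30.7 in the libraries labelled mys-1(RNAi), 30.2 in XO vector RNAi and 33.7 in wild-type XX. Without strand, reads of the shared bases cannot be told apart, and the part of these neighbours in the level of spe-29 was not tested. The level of spe-29 is thus uncertain as a measure of its own transcript.

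spe-4 (WBGene00004958), a presenilin-like protein of the fibrous body-membranous organelle in which major sperm protein is packed, had 1.54 RPKM in dpy-21(e428) XX, 1.07 RPKM in the libraries labelled mys-1(RNAi), 1.75 RPKM in XO vector RNAi and 1.42 RPKM in wild-type XX. spe-6, a casein kinase 1-like enzyme needed for that packing, had 0.330 RPKM in dpy-21(e428) XX, 1.25 in the libraries labelled mys-1(RNAi), 0.970 in XO vector RNAi and 0.820 in wild-type XX. Only in the libraries labelled mys-1(RNAi) did its mean pass 1 RPKM. spe-10, a palmitoyltransferase of the same organelle, had 0.0766 RPKM in dpy-21(e428) XX, 0.118 in the libraries labelled mys-1(RNAi), 0.106 in XO vector RNAi and 0.0181 in wild-type XX.

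spe-44 is a transcription regulator that acts early in the sperm programme, before many of the genes above. It had 0.388 RPKM in dpy-21(e428) XX, 0.695 RPKM in the libraries labelled mys-1(RNAi), 0.691 RPKM in XO vector RNAi and 0.328 RPKM in wild-type XX. Both XO means lay above both XX means, as they did for 46.1% of all protein-coding genes.

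The genes of the gamete surface and fertilization were low, with the highest mean over the groups in spe-41, although spe-9 was above it in both XX groups. spe-41 (also called trp-3), a cation channel that moves to the sperm surface on activation, had 0.215 RPKM in dpy-21(e428) XX, 1.04 RPKM in the libraries labelled mys-1(RNAi), 0.911 RPKM in XO vector RNAi and 0.360 RPKM in wild-type XX. spe-9, a membrane protein with EGF repeats that is needed at the egg, had 0.756 RPKM in dpy-21(e428) XX, 0.507 in the libraries labelled mys-1(RNAi), 0.352 in XO vector RNAi and 0.400 in wild-type XX, and shares 8 exon bases with C17D12.5. spe-42, a membrane protein of the DC-STAMP type, had 0.139 RPKM in dpy-21(e428) XX, 0.360 in the libraries labelled mys-1(RNAi), 0.275 in XO vector RNAi and 0.148 in wild-type XX. None of these genes was above 1 RPKM in an XX group. spe-38, another membrane protein of fertilization, had 0.0275 RPKM in dpy-21(e428) XX, 0.0610 in the libraries labelled mys-1(RNAi), 0.0391 in XO vector RNAi and 0.0424 in wild-type XX. spe-11, whose product is carried by sperm for the development of the embryo, had 0.0401 RPKM in dpy-21(e428) XX, 0.0165 in the libraries labelled mys-1(RNAi), 0 in XO vector RNAi and 0.0111 in wild-type XX. spe-46 and spe-47 were given no role here. spe-46 had 0.0930 RPKM in dpy-21(e428) XX, 0.471 in the libraries labelled mys-1(RNAi), 0.533 in XO vector RNAi and 0.211 in wild-type XX. spe-47, which encodes a protein with the fold of major sperm protein, had 0.454 RPKM in dpy-21(e428) XX, 0.692 in the libraries labelled mys-1(RNAi), 0.721 in XO vector RNAi and 0.490 in wild-type XX. Both spe-46 and spe-47 were thus higher in each XO group than in each XX group. The same held for 18 of the 72 sperm genes in all, and for 46.1% of all protein-coding genes.

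The comparison of dpy-21(e428) XX with wild-type XX asks whether a loss of dosage compensation goes with a change in sperm genes. Differences were expressed as log2 ratios after adding 1 RPKM to each mean, which keeps genes near 0 close to a ratio of 0. By more than 2-fold, 1 of 72 sperm genes was higher and 0 were lower, against 4.03% and 1.48% of protein-coding genes. The higher gene was ssp-35 (log2 ratio 1.59), and the lowest ratio was that of spe-15 (-0.64). spe-39 and spe-29 had log2 ratios of -0.31 and -0.23, spe-4 had 0.07 and spe-5 had 0.0017. Of the 72 genes, 16 were higher, 19 lower and 37 equal, the last with both means at 0, and 9916 of 19617 protein-coding genes were higher. The median log2 ratio was 0 for sperm genes and 0.0027 for protein-coding genes, and the log2 ratio of the summed RPKM was -0.22. The sum is carried by few genes: for the msp- genes alone that ratio was 0.07, and without spe-29, spe-39 and spe-15 it was 0.34. With 1 RPKM added, none of the 60 sperm genes below 0.5 RPKM in every group could pass 2-fold in any comparison, so nothing is read from these shares. With a pseudocount of 0.1 RPKM, 3 sperm genes passed 2-fold, ssp-35 higher and spe-6 and ssp-10 lower, against 12.3% of protein-coding genes in either direction.

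In the XO libraries labelled mys-1(RNAi) against XO vector RNAi, 0 of 72 sperm genes were higher and 0 lower by more than 2-fold, against 0.224% and 0.117% of protein-coding genes. The log2 ratios ran between -0.41 for spe-4 and 0.30 for ssp-10. spe-29 had a log2 ratio of 0.26, spe-15 0.13, ssp-35 0.07, spe-39 0.06 and spe-5 0.04. The number of genes with a higher mean was 30, with a lower mean 20 and with an equal mean 22, while 10879 of 19617 protein-coding genes had a higher mean. The median log2 ratio was 0, against 0.0156 for protein-coding genes. The log2 ratio of the summed RPKM was 0.11, and for the msp- genes alone it was -0.21. With a pseudocount of 0.1 RPKM, ssp-10 passed 2-fold higher and msp-52 lower, against 2.43% of protein-coding genes in either direction. No test between libraries was run, since only group means were used, and these values compare the libraries by their label.

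XO vector RNAi against wild-type XX compares single-X with XX hermaphrodites. ssp-35 (log2 ratio 1.16) was again the 1 sperm gene past 2-fold higher, and 0 were lower, against 8.42% and 2.65% of protein-coding genes. This comparison shares its wild-type libraries with that of dpy-21(e428), so the low wild-type level of ssp-35 enters both. The lowest log2 ratio was that of spe-29 (-0.85). spe-39 had -0.18 and spe-15 -0.06, while spe-5 had 0.20 and spe-4 had 0.18. The scale of this comparison is shifted, since genes with a mean over the groups above 1 RPKM had a median log2 ratio of 0.16. Centred on that median, spe-29 also passed 2-fold, lower in XO vector RNAi, and spe-4 and spe-5 stood close to the median gene. In all, 32 sperm genes were higher, 14 lower and 26 equal, and 12486 of 19617 protein-coding genes were higher. Sperm genes had a median log2 ratio of 0 against 0.0929 for protein-coding genes. The log2 ratio of the summed RPKM was -0.19 for all sperm genes, and 1.33 for the msp- genes alone, whose sums were 1.99 RPKM in XO vector RNAi and 0.795 RPKM in wild-type XX. Without spe-29, spe-39 and spe-15 the ratio was 0.76. With a pseudocount of 0.1 RPKM, 7 sperm genes passed 2-fold, against 22.1% of protein-coding genes in either direction. Of these, ssp-35, msp-52, msp-38, spe-41, spe-46 and msp-31 were higher and ssp-10 was lower, and apart from ssp-35 all were below 1 RPKM in both groups.

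The near absence of sperm RNA was set beside genes that act before and beside it. The lists below were chosen with earlier results of these data known. Of all protein-coding genes, 63.3% (wild-type XX) to 68.2% (libraries labelled mys-1(RNAi)) were above 1 RPKM in a single group. Of 9 regulators of sperm fate, 8 were above 1 RPKM in all 4 groups: elt-1, fbf-1, fbf-2, fog-1, fog-2, fog-3, gld-1 and tra-1. The list was not limited to genes that promote the sperm fate, so the 8 are not a count of such genes. fog-1 and fog-3 commit germ cells to the sperm fate. fog-1 had 4.13 RPKM in dpy-21(e428) XX, 3.82 in the libraries labelled mys-1(RNAi), 3.64 in XO vector RNAi and 3.93 in wild-type XX, and fog-3 had 2.89 RPKM in dpy-21(e428) XX, 3.48 in the libraries labelled mys-1(RNAi), 3.60 in XO vector RNAi and 4.25 in wild-type XX. elt-1 had 23.9 RPKM in dpy-21(e428) XX, 20.9 in the libraries labelled mys-1(RNAi), 19.2 in XO vector RNAi and 12.9 in wild-type XX, though it also acts in the skin, and cpb-1 alone stayed below 1 RPKM. Germ-line RNA was present: all 10 germ-line genes, among them the P granule genes pgl-1 and glh-1 and the meiotic genes him-3 and rec-8, were above 1 RPKM in all groups.

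Other genes of sperm were nearly as low as the 72. Of 20 further sperm genes, 3 were above 1 RPKM in dpy-21(e428) XX, 2 in the libraries labelled mys-1(RNAi), 2 in XO vector RNAi and 3 in wild-type XX. gsp-3, a phosphatase of sperm, was at 0 in every group, and its near copy gsp-4 did not pass 0.216 RPKM. smz-1 did not pass 0.230 RPKM, and fer-1, needed for the membranous organelles to fuse, did not pass 0.292 RPKM. Markers of later stages were also low. The yolk genes vit-2, vit-5 and vit-6 did not pass 0.797 RPKM, and the cuticle genes bli-1, bli-2, col-7 and col-19 did not pass 1.04 RPKM. Of the genes of male soma, lov-1 did not pass 0.0080 and pkd-2 did not pass 0.194 RPKM, while try-5 stood between 1.55 and 1.79 RPKM. Of 10 genes of the oocyte and eggshell, 7 were above 1 RPKM in every group. This share is close to that of all protein-coding genes in single groups (63.3 to 68.2%), whereas the share of the 20 further sperm genes is far below it. The markers of intestine (elt-2 and ges-1), body wall muscle (myo-3 and unc-54) and neurons (unc-119 and snb-1) were at 10.7 RPKM or more in every group, so the tissues of a whole larva were represented.

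**Figure D4:**
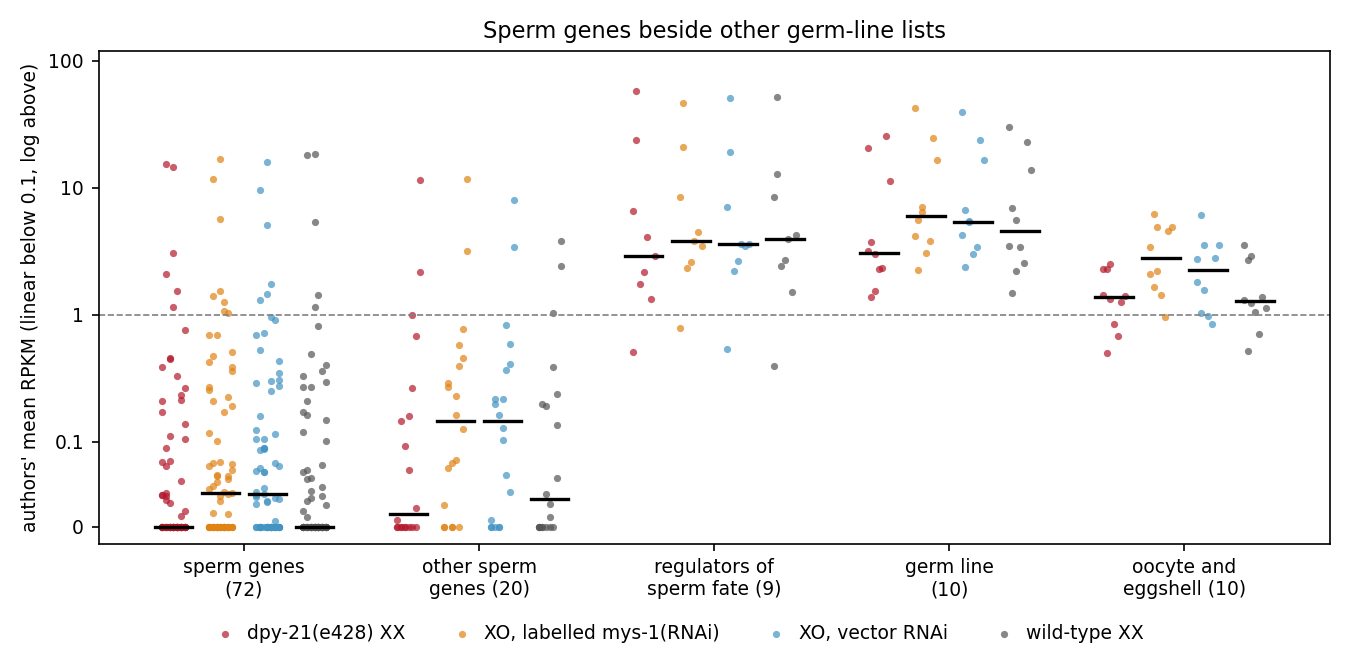
Authors' mean RPKM (y axis, linear below 0.1 and logarithmic above) of the 72 sperm genes and of 4 other lists, with 1 point for each gene and group, a black bar at each median and a dashed line at 1 RPKM. Medians of the sperm genes lie at or near 0 and those of the regulators, germ-line and oocyte lists above 1 RPKM.

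H4K16ac at sperm genes was read from the deposited peaks, which are positions alone, without height. A promoter peak was any overlap with the 500 bp before the gene start. In XO larvae 22 of 72 sperm genes had one (30.6%, 95% Wilson interval 21.13 to 41.95%), and in wild-type XX larvae 19 of 72 (26.4%, 17.6 to 37.6%). Of protein-coding genes 49.7% had one in XO and 43.5% in wild-type XX. With the chromosomes of the sperm genes, the share expected from protein-coding genes was 51.6% in XO and 48.2% in wild-type XX. The intervals cover counting alone, and genes of a cluster are not independent.

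By family, spe- genes had a promoter peak in 14 of 21 genes in XO and 13 of 21 in wild-type XX. msp- genes had one in 7 of 35 genes in XO and 5 of 35 in wild-type XX, ssp- genes in 1 of 12 in each background and ssq- genes in 0 of 4 in each. All 5 spe- genes above 1 RPKM in every group, spe-39, spe-29, spe-15, spe-4 and spe-5, had a peak in both backgrounds, whereas ssp-35 had no promoter peak in either. A peak did overlap the gene body of ssp-35 in wild-type XX and none did in XO. Of the msp- genes, msp-36, msp-37, msp-38 and msp-71 had a peak in both. The first 3 of these lie at the end of the third cluster, where the pseudogene msp-37 sits inside an exon of dhs-12, a gene with 40.97 RPKM in XO vector RNAi and 31.9 RPKM in wild-type XX. In all, 17 sperm genes had a peak in both backgrounds, 5 in XO alone (msp-33, msp-77, msp-78, spe-11 and spe-38), 2 in wild-type XX alone (msp-50 and spe-26) and 48 in neither. Of the msp- genes with printed upstream sequence, msp-77 and msp-78 are the ones with a peak.

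The shares of low sperm genes were close to those of all genes of like level. Of the 56 protein-coding sperm genes below 0.5 RPKM in all 4 groups, 10 had a promoter peak in XO (17.9%, 10.0 to 29.8%) and 7 in wild-type XX (12.5%, 6.19 to 23.6%). Of all 4853 protein-coding genes that low, 17.4% had one in XO and 12.2% in wild-type XX. These low genes were not matched to the chromosomes of the sperm genes. In XO the share of protein-coding genes with a peak ran between 28.4% on chromosome V and 73.8% on chromosome III. The part of the chromosomes in this closeness was not tested. Protein-coding genes above 1 RPKM in any group had one in 62.4% in XO and 55.9% in wild-type XX. Reads with more than 4 places in the genome were left out of the ChIP alignment by the authors. Of the 50-base words upstream of an msp- gene, at least 70.7% and in the median gene 100% had no more than 4 places, so these windows could hold peaks.

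**Figure D5:**
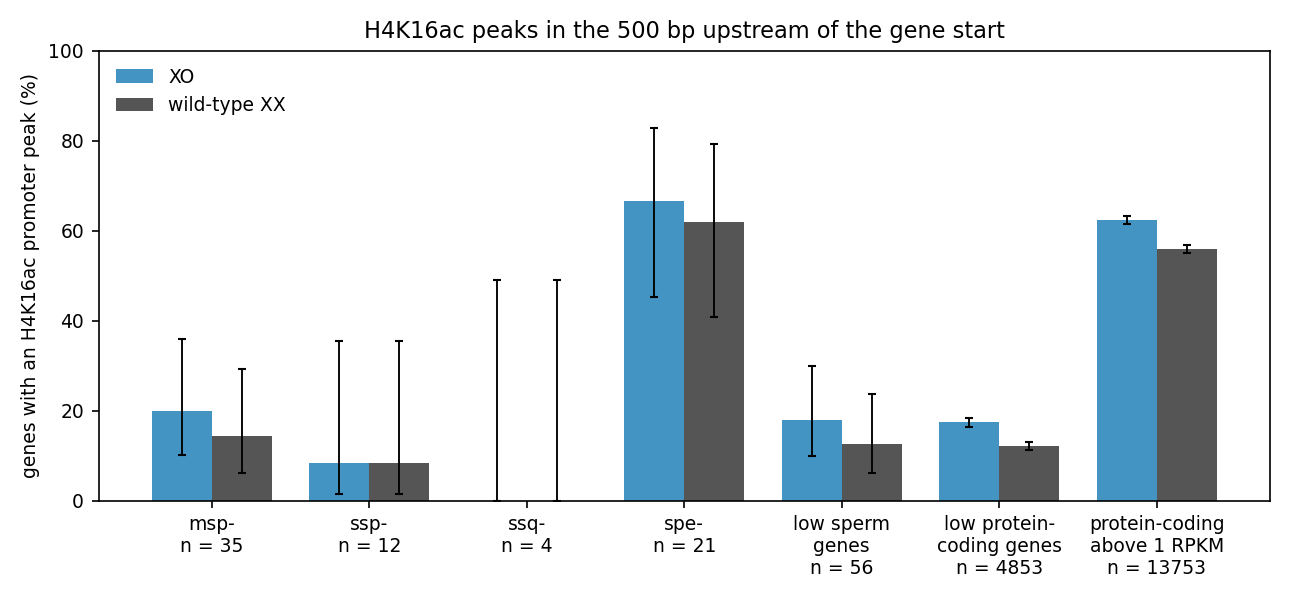
Share of genes with an H4K16ac peak in the 500 bp upstream of the gene start (y axis, percent) in XO and wild-type XX larvae, for the 4 sperm families, for protein-coding sperm genes and all protein-coding genes below 0.5 RPKM in every group, and for protein-coding genes above 1 RPKM in any group. Error bars are 95% Wilson intervals: low sperm genes (17.9% in XO, 12.5% in wild-type XX) lie beside all low genes (17.4% and 12.2%).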

How the data were processed

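RNA libraries were non-stranded, single-end and 50 bases long. Per the labels and the study's methods, the authors aligned them to WS235 with TopHat 2.0.13, allowing 20 hits, and computed RPKM with Cufflinks 2.2.1, which divides reads with several places. The authors deposited the mean RPKM of each group. A second deposited table holds log2 fold changes and p-values of the authors' DESeq2 1.6.3 and was not used. Depth is not given by these files. For ChIP-seq, the authors aligned reads with Bowtie 1.1.1 and called broad peaks with MACS2 2.1.0 on pooled replicates, and the deposited lists give positions alone.

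Here, log2 ratios of mean RPKM used a pseudocount of 1 RPKM, a 2-fold threshold and no test. Of 46170 genes, 45871 were placed in the WBcel235 annotation of Ensembl release 115. Sequences were read from NCBI RefSeq's WBcel235. Shares carry 95% Wilson intervals (statsmodels 0.14.6). The 2-fold call was tested on well-expressed wild-type values changed by set factors. The promoter window, peak overlap and reverse complement were tested on made-up cases. The other procedures, and values near 0, were not tested in this way. Groups follow the labels.

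Members and lists were chosen with earlier results of these data known. Named genes were the 3 highest of each family, the 5 with the largest ratio in each direction among those with a mean above 1 RPKM, spe- genes of known role, the checks of the labels, and marker lists. Printed sequences, the GATA words and their window, overlapping and neighbouring genes, genes named for their peaks or for the pseudocount of 0.1 RPKM, and spe-46, spe-47, ssp-33 and ssp-34 were chosen after their values were seen. trp-3 is spe-41. spe-13, spe-16 and plg-1 were not analysed here, and some spe- genes of known role are not reported here. Alternatives were other pseudocounts, thresholds, gene subsets, centring, peak widths and promoter lengths.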

Additional observations from a re-analysis of the deposited data

How the results depend on the processing

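No paired analysis was possible because the columns carry group means only. Leaving out replicates could not be run for the same reason. Of 78 alternative values, 54 stayed within 0.1 on the log2 scale, 1.5 times a count or the interval of a share, and 24 moved. The cause was not tested. With a pseudocount of 0.1 RPKM, sperm genes past 2-fold were 3 in dpy-21(e428) XX against wild-type XX, 2 in the libraries labelled mys-1(RNAi) against XO vector RNAi and 7 in XO vector RNAi against wild-type XX. With a pseudocount of 5 RPKM or a 4-fold threshold the first and last of these comparisons had 0, and with a 1.5-fold threshold 2 each. Centred on the median of expressed genes, XO vector RNAi against wild-type XX had 2 past 2-fold, a median of -0.16 and a log2 ratio of sums of -0.35. In dpy-21(e428) XX against wild-type XX, the 6 genes above 1 RPKM had a median of -0.11. The log2 ratio of sums for msp- genes alone was 0.066 in dpy-21(e428) XX against wild-type XX, -0.21 in the libraries labelled mys-1(RNAi) against XO vector RNAi, and 1.33 in XO vector RNAi against wild-type XX. Without spe-29, spe-39 and spe-15, an alternative chosen after seeing the data, it was 0.34 in the comparison of dpy-21(e428) XX, 0.0054 in that of the libraries labelled mys-1(RNAi) and 0.76 in that of XO vector RNAi. Above 5 RPKM there were 2 sperm genes in dpy-21(e428) XX and 3 in each other group, and above 0.5 RPKM there were 11 in XO vector RNAi. Values below 1 RPKM may rest on few reads, and depth cannot be read from the means.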

Other observations

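Genes that received a spe- name after the release used by the authors are not among the 72. The later annotation holds 8 of them in the table, chosen here after their values were seen, among them spe-36, spe-48, spe-49 and spe-54. Of these, 7 were below 1 RPKM in every group. spe-54 was the highest of the 7, with 0.578 RPKM in dpy-21(e428) XX, 0.662 RPKM in the libraries labelled mys-1(RNAi), 0.671 RPKM in XO vector RNAi and 0.316 RPKM in wild-type XX. spe-48 stood apart with 17.4 RPKM in dpy-21(e428) XX, 19.3 in the libraries labelled mys-1(RNAi), 17.5 in XO vector RNAi and 15.4 in wild-type XX. spe-36, which encodes a secreted protein of fertilization, had 0.364 RPKM in dpy-21(e428) XX, 0.555 in the libraries labelled mys-1(RNAi), 0.351 in XO vector RNAi and 0.0662 in wild-type XX. spe-49, related to spe-42, had 0.132 RPKM in dpy-21(e428) XX, 0.319 in the libraries labelled mys-1(RNAi), 0.241 in XO vector RNAi and 0.0394 in wild-type XX.

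Among the nspd- genes, a family of short sperm-specific transcripts, nspd-11 had 11.5 RPKM in dpy-21(e428) XX, 11.8 RPKM in the libraries labelled mys-1(RNAi), 7.97 RPKM in XO vector RNAi and 2.42 RPKM in wild-type XX. Wild-type XX was lowest, as for ssp-35. nspd-7 had 2.19 RPKM in dpy-21(e428) XX, 3.17 in the libraries labelled mys-1(RNAi), 3.42 in XO vector RNAi and 3.84 in wild-type XX, with wild-type XX highest. The other 10 nspd- genes did not pass 1.04 RPKM, the level of nspd-5 in wild-type XX.

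RNAs of the oocyte and of meiosis were present while sperm RNAs were near 0. Most protein-coding genes were also above 1 RPKM in each group, so such presence is not particular to these lists. Many RNAs of the oocyte and germ-line lists were higher in both XO groups than in both XX groups. This held for 8 of 10 genes of the oocyte list, all but cbd-1 and egg-1, and for 6 of 10 of the germ-line list, all but glp-1, him-3, nos-3 and rec-8. It also held for 18 of 72 sperm genes and for 46.1% of all protein-coding genes. The 21 sperm genes at 0 in every group could not meet it, so these 2 shares are not alike. oma-2, a regulator of oocyte maturation, had 1.41 RPKM in dpy-21(e428) XX, 4.94 RPKM in the libraries labelled mys-1(RNAi), 3.56 RPKM in XO vector RNAi and 1.14 RPKM in wild-type XX. cpg-1, an eggshell proteoglycan gene, had 2.28 RPKM in dpy-21(e428) XX, 6.27 in the libraries labelled mys-1(RNAi), 6.07 in XO vector RNAi and 2.69 in wild-type XX. syp-1, of the synaptonemal complex, had 1.56 RPKM in dpy-21(e428) XX, 7.11 in the libraries labelled mys-1(RNAi), 5.50 in XO vector RNAi and 2.23 in wild-type XX, and fog-2, which promotes the sperm fate in hermaphrodites, had 1.32 RPKM in dpy-21(e428) XX, 4.48 in the libraries labelled mys-1(RNAi), 3.46 in XO vector RNAi and 1.51 in wild-type XX. The muscle myosin unc-54 also stood at 1064 and 1143 RPKM in the XO groups, against 533.6 RPKM in dpy-21(e428) XX and 583.5 RPKM in wild-type XX, so XO means were not higher in germ-line genes alone. No test between libraries was run for any of these, since only group means were used.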
